A study of Mus musculus with 2 samples.

Results

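Cycling cancer cells of the primary tumour were keratin-positive cells that carried transcripts of 3 genes of active division. Mki67 encodes the proliferation antigen Ki-67, Top2a the topoisomerase that untangles replicated DNA, and Cenpf a kinetochore protein of late cell cycle. The members were chosen by raw transcript counts (unique molecular identifiers, UMIs): at least 5 UMIs of Mki67, Top2a and Cenpf together, in cells that had passed a gate for cancer cells. That gate took cells with over 200 detected genes and at most 5% of their UMIs in mitochondrial genes. It also needed at least 5 UMIs and at least 500 CPM (UMIs per 1000000 UMIs of the cell) of Krt8 and Krt18, at most 1 UMI of Ptprc, at most 1 UMI of Pecam1 and Cdh5, and under 10 UMIs of Col1a1 and Col3a1. Of 12427 primary tumour cells, 9989 passed the limits on genes and mitochondrial UMIs and 7030 passed the whole gate. Of these 7030 cells, 2475 were cycling, and 3960 with 0 or 1 UMI of the 3 genes served as the non-cycling comparison. The 595 cells with 2 to 4 UMIs belonged to neither group. The whole series held 24044 cells in 2 libraries.

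Each tissue, the primary tumour and the paired lymph nodes, gave 1 library of 3′ transcript counts (10x Genomics), pooled from 6 C57BL/6J mice bearing EO771-HEVM3 tumours. The parent line EO771 derives from a mouse mammary tumour. HEVM3 was derived from it by repeated passage in mice, selecting lung metastatic cells that had been marked by light in the draining lymph node. The study names them for spread through high endothelial venules. The age of the mice at collection is not given in the sources used here. No label ties a cell to a mouse, so each library was 1 sample, no test between groups was possible, and cells were not treated as replicates. A level is the CPM of a gene after pooling the UMIs of all cells in a group. Intervals in brackets are exact 95% intervals for the counts (Poisson for levels, Clopper-Pearson for shares, the split of 2 counts for log2 ratios) and cover counting error only.

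A dividing cell passes from G1, through DNA replication in S phase, to G2 and mitosis. At the end of G1, E2F factors switch on cyclin E and replication genes. From S phase to mitosis, the MuvB complex with MYBL2 and FOXM1 switches on genes of the spindle, the kinetochore and mitotic exit, often through promoters with a CHR element and CCAAT boxes. In breast tumours, Ki-67 staining is used to grade how many cancer cells are in cycle.

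Promoters are shown first, because many of the 12 genes with the highest ratios shared letters there that the rule had not used. Such letters were less common over all higher genes, as given below. The sequences are from RefSeq (GRCm38.p6, the build of the count files), and each is the 250 bases upstream of the transcription start, 5′ to 3′ on the gene's strand. Capitals mark matches, on either strand, to the CHR letters TTTGAA or TTCGAA, to CCAAT, or to the E2F letters TTTGGCGC, TTTCCCGC or TTTCGCGC. The first 2 genes were among the 12 with the highest ratios in cycling cells, the next 2 among the 5 with the highest ratios in the last of 5 bins of cycling cells ordered from S to G2M, and the last 2 are subunits of the replicative helicase.
Kif11: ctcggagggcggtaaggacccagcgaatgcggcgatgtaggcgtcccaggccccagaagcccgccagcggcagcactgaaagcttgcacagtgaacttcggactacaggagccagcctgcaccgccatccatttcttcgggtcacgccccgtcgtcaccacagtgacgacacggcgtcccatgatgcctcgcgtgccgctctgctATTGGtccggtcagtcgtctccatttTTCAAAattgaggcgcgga
Depdc1a: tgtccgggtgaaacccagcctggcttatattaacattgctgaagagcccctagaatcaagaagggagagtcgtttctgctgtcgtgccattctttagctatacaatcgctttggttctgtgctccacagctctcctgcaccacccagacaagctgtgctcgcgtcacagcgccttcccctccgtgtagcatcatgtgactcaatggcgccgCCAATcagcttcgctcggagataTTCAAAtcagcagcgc
Fam83d: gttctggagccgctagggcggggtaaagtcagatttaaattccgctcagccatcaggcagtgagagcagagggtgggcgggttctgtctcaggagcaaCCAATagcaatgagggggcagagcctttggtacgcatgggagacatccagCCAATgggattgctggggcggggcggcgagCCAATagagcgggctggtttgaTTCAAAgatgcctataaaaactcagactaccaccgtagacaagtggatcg
Gas2l3: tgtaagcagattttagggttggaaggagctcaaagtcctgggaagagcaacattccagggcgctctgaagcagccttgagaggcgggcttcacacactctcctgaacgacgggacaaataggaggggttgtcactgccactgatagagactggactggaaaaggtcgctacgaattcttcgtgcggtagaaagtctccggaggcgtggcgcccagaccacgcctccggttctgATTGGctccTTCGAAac
Mcm5: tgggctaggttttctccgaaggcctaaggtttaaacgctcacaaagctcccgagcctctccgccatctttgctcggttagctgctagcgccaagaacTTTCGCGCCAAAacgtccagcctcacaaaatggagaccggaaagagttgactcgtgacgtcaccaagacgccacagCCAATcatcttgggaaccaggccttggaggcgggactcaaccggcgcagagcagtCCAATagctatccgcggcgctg
Mcm6: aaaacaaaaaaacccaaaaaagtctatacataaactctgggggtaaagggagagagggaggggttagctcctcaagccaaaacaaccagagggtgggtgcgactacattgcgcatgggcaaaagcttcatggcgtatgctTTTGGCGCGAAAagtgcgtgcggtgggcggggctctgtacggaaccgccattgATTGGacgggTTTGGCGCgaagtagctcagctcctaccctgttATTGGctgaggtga

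Kif11 encodes the spindle motor Eg5, and its sequence lies on the plus strand at chr19:37376132-37376381. It held a reverse CCAAT whose first base was 45 bases upstream of the start, and a reverse TTTGAA at 19 bases. Depdc1a (chr3:159495183-159495432, plus strand) held CCAAT at 39 bases and a reverse TTTGAA at 16 bases. Fam83d, which recruits a kinase to the spindle (chr2:158767849-158768098, plus strand), held CCAAT 3 times, at 152, 102 and 72 bases, and a reverse TTTGAA at 50 bases. Gas2l3, a cytoskeletal linker of dividing cells (chr10:89443968-89444217, minus strand), held a reverse CCAAT at 17 bases and the palindrome TTCGAA at 8 bases. These 4 were chosen for display because both matches lay upstream, with the CHR match nearer the start. Other named genes differed. Hmmr, Kif4, Aspm and Prr11 held CCAAT and no CHR match in these 250 bases, and in Kif14 the CHR match, at 228 bases, lay farther upstream than CCAAT at 92 bases. Mcm5 (chr8:75109259-75109508, plus strand) held overlapping E2F matches at 153 and 149 bases and CCAAT at 77 and 22 bases, with no CHR match. Mcm6 (chr1:128359706-128359955, minus strand) held E2F matches at 110, 106 and 47 bases and reverse CCAAT at 57 and 14 bases.

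All motifs were counted over 300 bases, from 250 before to 50 after the start, and a gene counted if any of its promoters held them. Of the 63 mitosis and G2M genes in the files, 54 had a promoter in the RefSeq table. CHR letters were in 41 of these (75.9%), against 16.6% of the 8806 genes compared that had a promoter and 19.2% of all 32851 promoters of the table. CHR and CCAAT letters together were in 36 mitosis genes (66.7%), against 7.06% of the genes compared and 7.52% of all promoters. Shares were lower over the 907 genes with a promoter that were at least 2-fold higher in cycling cells. Of these, 255 (28.1%) held CHR letters, 158 (17.4%) CHR and CCAAT letters together, and 113 (12.5%) E2F letters. Of the 38 replication genes with a promoter, 17 (44.7%) held E2F letters, against 4.38% of the genes compared and 1.84% of all promoters, and 8 (21.1%) held CHR letters. Among 8 named lower genes with a promoter, 0 held CHR letters and 1 held CCAAT, against 16.6% and 43.6% of the genes compared. Of 8 named higher genes with a promoter, 6 held CHR and CCAAT letters together. Sets of 8 genes are too small to set against these shares. A match is a description of letters and not of a bound factor.

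Cycling cells made up 35.2% (34.1 to 36.3) of the primary tumour gate. They gave more UMIs than non-cycling cells, with a median of 28134 UMIs and 5413 genes per cell against 10796.5 UMIs and 2925 genes, a ratio of 2.61 in UMIs. The members carried 55.2% of all UMIs of the gate, and 29.4% of them exceeded 6000 detected genes, against 0.833% of non-cycling cells. A limit of 6000 genes, as in the methods of the study, would remove 728 members. Median mitochondrial shares were near each other, at 3.02% and 2.83%. A deeper cell reaches 5 UMIs more readily, so the share was also taken after thinning each cell to 5000 UMIs. With at least 2 UMIs of the 3 genes left, it was 35.2% (34.1 to 36.4) of 6416 cells, with 614 shallower cells left out. With at least 1 UMI left it was 46.6% (45.4 to 47.8). Among gate cells of 10000 to 20000 UMIs, 23.5% had at least 5 UMIs of the 3 genes.

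The threshold itself divided cells of like depth. The 132 gate cells with 4 UMIs of the 3 genes had a median of 17628.5 UMIs, and the 118 members with exactly 5 had 17955.5. Their summed mitosis levels were 2623 and 3056 CPM, and their summed replication levels 3275 and 4074 CPM. Cells on either side of the line were therefore near neighbours, and members ranged up to 280 UMIs of the 3 genes, with a median of 28. Top2a was found in 97.5% of members (median 14 UMIs), Mki67 in 97.2% (median 7) and Cenpf in 91.5% (median 6), and 2161 members (87.3%) had UMIs of all 3. As background, 8 of 140 primary tumour neutrophils, which do not divide once mature, had any UMI of the 3 genes (5.71%), and 2 had at least 5. Pooled, these neutrophils held 28 UMIs of the 3 genes in 178800, or 156.6 CPM (104 to 226), and their mitosis and G2M genes stood at 2852 CPM. Both levels were above those of non-cycling cancer cells, which the rule chose for low UMIs. Replication genes went the other way, at 643 CPM in neutrophils, 969 CPM in non-cycling cells and 4364 CPM in members. In non-cycling cells Mki67 stood at 3.05, Top2a at 11.2 and Cenpf at 2.30 CPM, and the mitosis list at 1037 CPM, against 287, 555 and 449 CPM and 7389 CPM in members. Median neutrophil depth was only 776 UMIs, too shallow for a share at 5000 UMIs, which 4 of them reached.

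The cancer cell label was checked against markers. Among epithelial genes that the gate did not use, Krt7 stood at 566 CPM in members and was found in 99.4% of them, Spint2 at 209 CPM in 96.6%, and the adhesion molecule Epcam at 55.9 CPM in 53.1%. The rest of the epithelial list was mixed. Krt19, Cldn4 and Elf3 were detected, with levels given below, while other genes of epithelial sheets were at or near 0. E-cadherin (Cdh1) had 12 UMIs in all 2475 members, Cldn7 had 2, and the splicing regulator Esrp1 had 0, which allows a level of up to 0.0382 CPM. Dcn, often read as a fibroblast marker, stood at 1142 CPM in members and 927 CPM in non-cycling cells, against 917 CPM in 147 collagen-positive cells without keratins. Col1a2, another fibroblast collagen, stood at 1.06 CPM in members against 4880 CPM in those cells. Dcn was thus near the level of those cells in both groups, while Col1a2 was far below it.

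Marker lists of other cell types differed in level. The 7 fibroblast genes summed to 1149 CPM in members and 935 CPM in non-cycling cells, nearly all of it Dcn, against 12998 CPM in the collagen-positive cells. The 9 T and NK cell genes summed to 23.6 CPM in members and 22.9 CPM in non-cycling cells, against 6020 CPM in 433 CD3-positive cells without keratins. The 9 macrophage and monocyte genes summed to 33.6 and 49.6 CPM, the 5 neutrophil genes to 17.1 and 37.3 CPM, and the 7 endothelial genes to 9.14 and 4.13 CPM, most of it Egfl7. The 5 B cell genes were at 0.687 and 0.960 CPM, with Ms4a1 at 0 UMIs in members, and the 6 dendritic cell genes at 1.88 and 1.73 CPM, with Xcr1 and Cd209a at 0 in non-cycling cells. The 5 erythrocyte genes were at 139.5 and 149.3 CPM, but the median log2 ratio of the 4 compared was 1.29 among cells of 10000 to 20000 UMIs and 4.36 in the lymph node. Doublet scoring with Scrublet marked 237 members (9.58%) and 159 non-cycling cells (4.02%). The part of these cells and of free RNA in the contrasts below was not tested beyond leaving the marked cells out.

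**Figure D1:**
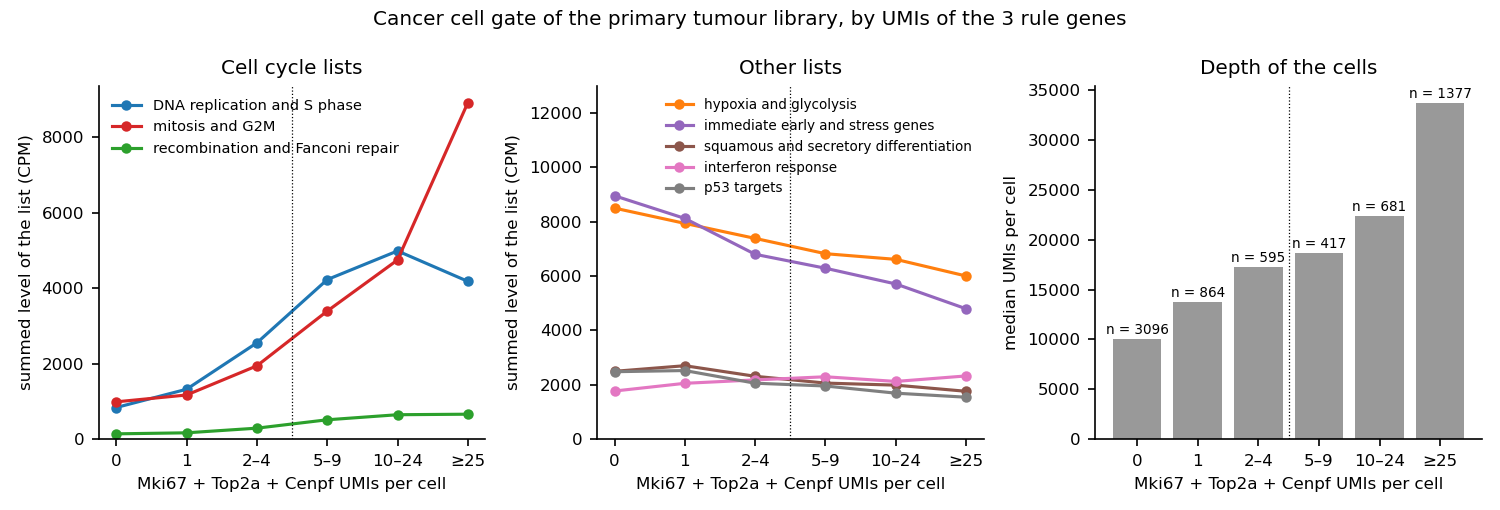
Summed levels of gene lists (CPM, left and middle) and median UMIs per cell (right) in the 7030 cells of the primary tumour gate, by UMIs of Mki67, Top2a and Cenpf per cell. The dotted line marks the threshold of 5 UMIs. Replication genes were highest at 10 to 24 UMIs (4987 CPM), mitosis genes at 25 or more (8920 CPM), and median depth was higher at every step.

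Replication and mitosis genes peaked at different steps of the 3 genes' UMIs. Summed replication genes stood at 837 CPM in cells with 0 UMIs, 1321 at 1, 2551 at 2 to 4, 4227 at 5 to 9, 4987 at 10 to 24 and 4180 CPM at 25 or more. They were thus highest before the last step. Summed mitosis genes went from 987 to 1168, 1942, 3393, 4748 and 8920 CPM over the same steps. On these sums, the 595 cells left between the groups were closer to cycling cells in replication genes than in mitosis genes. The rule had chosen them for few UMIs of the 3 genes, so their low mitosis level was partly set in advance. At least 10 UMIs of 8 S phase ordering genes were found in 43.4% of them (39.3 to 47.5), in 86.8% of members and in 4.72% of non-cycling cells (4.08 to 5.43). At least 10 UMIs of 8 G2M ordering genes were found in 7.39%, 74.3% and 0.253%. So 187 of the 3960 cells called non-cycling carried S phase transcripts in some number. These shares were taken at unequal depths, with medians of 17306, 28134 and 10796.5 UMIs in the same order. As levels, the S phase ordering genes stood at 586, 885 and 214 CPM, and the G2M ordering genes at 174, 1208 and 48.5 CPM.

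Genes across the transcriptome were compared as log2 ratios of summed CPM, cycling over non-cycling, with 0.5 UMI added to each sum. Of 10998 genes with at least 100 UMIs over both groups, 1129 (10.3%) were at least 2-fold higher in cycling cells and 430 (3.91%) at least 2-fold lower. These counts describe groups chosen on the same counts and carry no test. The median gene stood at +0.21, and centred on it 742 genes were higher and 725 lower. Centring subtracts the same amount from every gene, which by itself lowers the first count and raises the second. Lower genes were fewer at like depth. Among cells of 10000 to 20000 UMIs, 532 cycling and 1467 non-cycling, 862 of 9527 genes (9.05%) were higher and 102 (1.07%) lower. The values called at like depth below are from this window.

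The 12 highest genes by the naming rule (at least 500 UMIs, found in at least 10% of the higher group's cells) included 7 members of the mitosis and G2M list. Hmmr, a microtubule-binding spindle protein, stood at 72.4 CPM in cycling and 1.02 CPM in non-cycling cells, a log2 ratio of 6.14 (5.76 to 6.57). It was found in 63.5% of members and 1.24% of non-cycling cells, at their unequal depths. The gene lies on chromosome 11 (GRCm38, chr11:40701395-40733422, minus strand). Kif4 and Kif11, spindle motors, had ratios of 6.08 and 5.77, Aspm, a spindle pole protein, 6.04, and Nusap1, a microtubule bundler, 5.85. Aurkb, the kinase of the chromosomal passenger complex, had 5.95, and Ska1, of the outer kinetochore, 5.72. Esco2, which joins sister chromatids during replication, had 5.94 and was the gene of this group with a role in S phase. Kif14 had 5.72, the kinase Pbk 5.72, Depdc1a 5.67 and the MYC-network repressor Mxd3 5.66. At like depth the 12 ratios ran from 4.91 (Depdc1a) to 5.93 (Aurkb), and in the lymph node from 5.37 (Ska1) to 7.82 (Esco2).

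**Figure D2:**
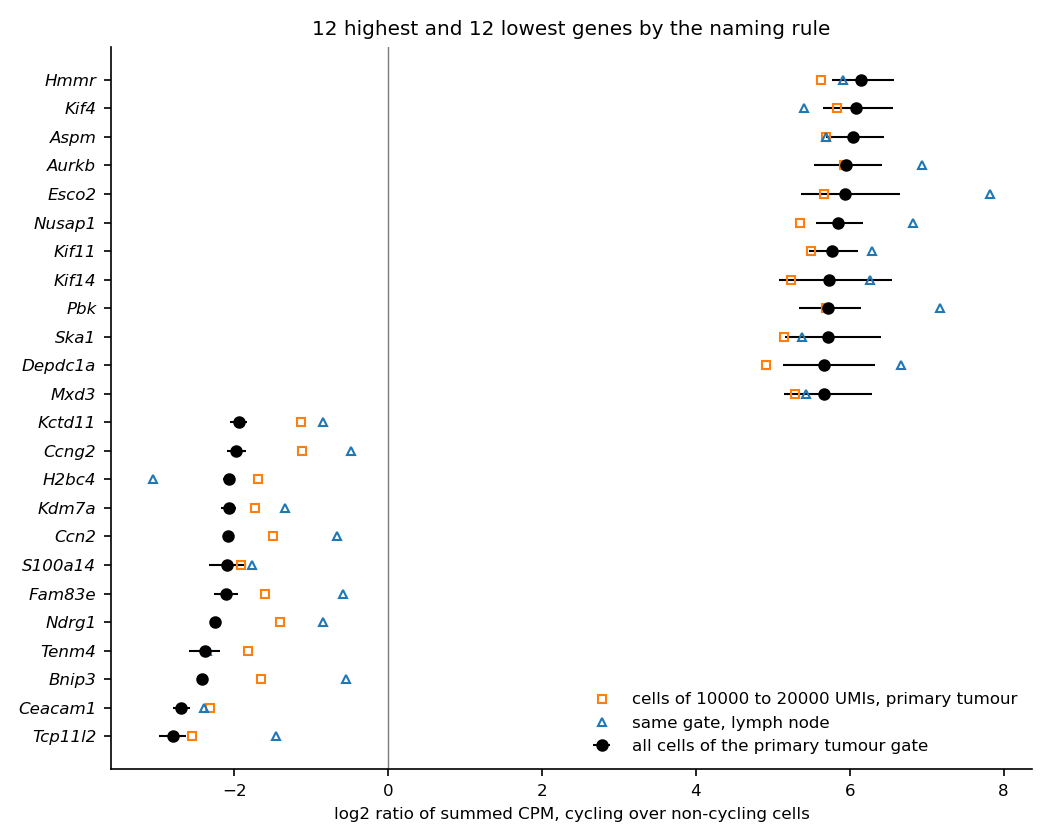
Log2 ratios of summed CPM, cycling over non-cycling cells, for the 12 highest and 12 lowest genes by the naming rule. Black points with exact 95% intervals are all gate cells of the primary tumour, squares the cells of 10000 to 20000 UMIs and triangles the lymph node. Every square keeps the side of its black point and stays past 2-fold.

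The 12 lowest genes had varied roles. Tcp11l2 stood at 4.06 CPM in cycling and 28.2 CPM in non-cycling cells, a log2 ratio of -2.80 (-2.98 to -2.62), and lies at chr10:84576626-84614359 (plus strand). Ceacam1, an adhesion molecule that also inhibits immune cells, stood at 10.1 and 65.1 CPM (-2.69), and was found at 5000 UMIs in 4.88% of members and 25.4% of non-cycling cells, and unthinned in 19.2% and 40.3%. Bnip3 and Ndrg1, targets of the hypoxia factor HIF-1, had ratios of -2.42 and -2.24. Ccn2, a matricellular target of YAP and TGF-beta signalling, had -2.08, and Ccng2, an atypical cyclin linked to cell cycle exit, -1.97. The others were Tenm4 (-2.38), Fam83e (-2.11), S100a14 (-2.09), the histone demethylase Kdm7a (-2.07), the histone H2bc4 (-2.07) and Kctd11 (-1.94). At like depth these 12 were still lower, from -2.54 (Tcp11l2) to -1.12 (Ccng2). In the lymph node they ran from -3.06 (H2bc4) to -0.48 (Ccng2), and 6 of the 12 stayed within 2-fold there.

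**Figure D3:**
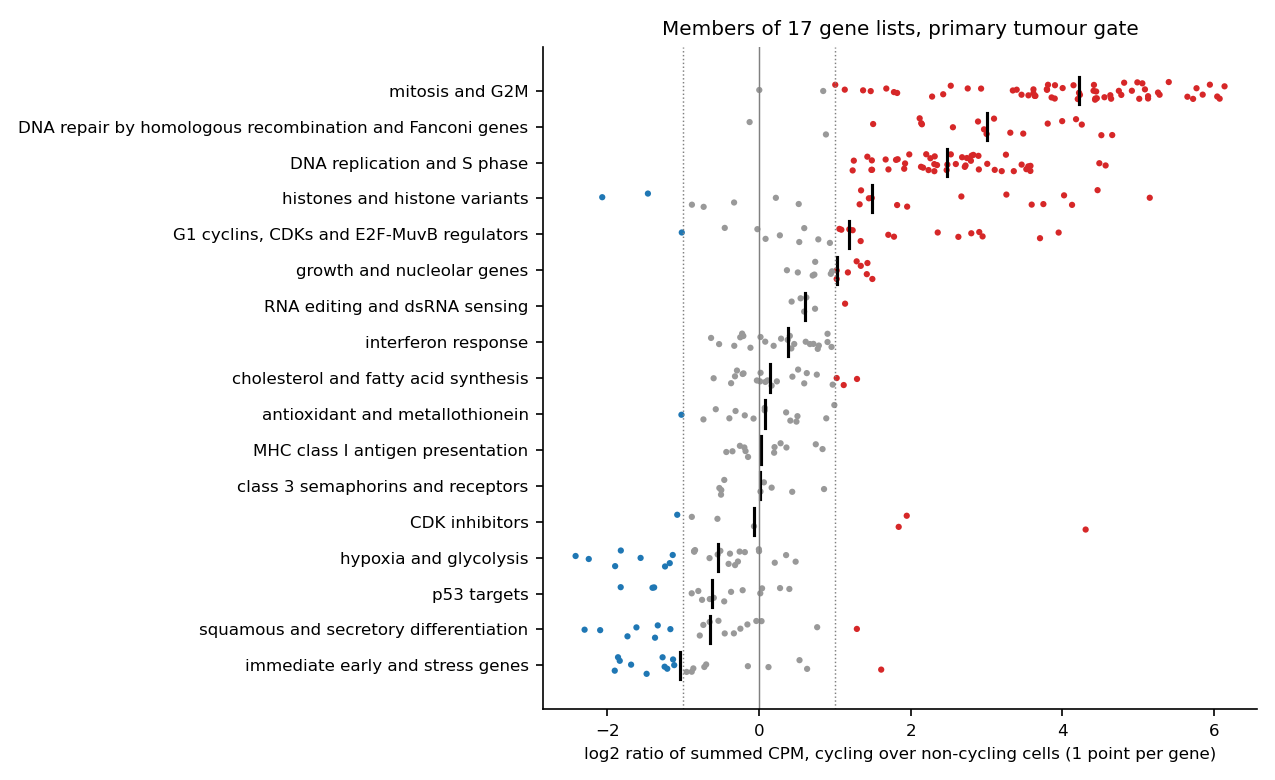
Log2 ratios of summed CPM, cycling over non-cycling cells of the primary tumour gate, for each compared member of 17 gene lists (1 point per gene), with list medians as black bars. Red points are at least 2-fold higher and blue points at least 2-fold lower. Mitosis, replication and recombination genes lie almost wholly to the right, hypoxia and immediate early genes mostly to the left.

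Replication genes were higher throughout the list. All 47 members compared were at least 2-fold higher, against 10.3% of all genes, with a median log2 ratio of 2.48 (2.44 at like depth) against 0.21 for all genes. Clspn, the adaptor of the replication checkpoint, stood at 72.8 and 3.05 CPM (4.57), and Rrm2, the limiting subunit of ribonucleotide reductase, at 64.0 and 2.84 CPM (4.49). The helicase subunits Mcm2 to Mcm7 lay between 1.67 (Mcm6) and 2.68 (Mcm5). Pcna, the sliding clamp, was high in both groups, at 336 and 119 CPM (1.49), and at 5000 UMIs it was found in 42.1% of non-cycling cells. The lowest ratio was that of Slbp, which binds histone messages (1.24).

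Mitosis genes differed more. Of 63 compared, 61 were at least 2-fold higher, against 10.3% of all genes, with a median of 4.22. At like depth 58 of 62 were, against 9.05%, with a median of 3.86. Cyclin B1 (Ccnb1) stood at 111 and 2.84 CPM (5.28) and cyclin A2 (Ccna2) at 83.4 and 1.65 CPM (5.65). The most abundant was Ube2c, the ubiquitin-conjugating enzyme of the anaphase-promoting complex, at 718 and 26.7 CPM (4.75), and at 5000 UMIs it was found in 79.3% of members and 10.8% of non-cycling cells. Tubb4b, a tubulin, had a ratio of 0.85, and Psrc1, a spindle protein and p53 target, stood at 45.4 and 45.3 CPM (0.00).

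Repair genes of homologous recombination and the Fanconi pathway were at least 2-fold higher in 17 of 19, against 10.3% of all genes, with a median of 2.72 at like depth and summed levels of 640.2 and 146 CPM. Fancd2 stood at 16.9 and 0.729 CPM (4.52) and Brca1 at 27.6 and 2.46 CPM (3.49). Fanci (0.88) and the mitotic inhibitor kinase Wee1 (-0.12) stayed within 2-fold.

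Histone genes were split. Of 21 compared, 14 were at least 2-fold higher, against 10.3% of all genes, and 2 at least 2-fold lower, against 3.91%. The median was 1.49, and 1.51 at like depth. Most replication-dependent histone messages lack a poly(A) tail, and a 3′ poly(A) library reads them poorly. The linker histone H1f5 stood at 133 and 3.72 CPM (5.15) and H2ac24 at 88.5 and 5.43 CPM (4.02). The variant H2az1 was abundant in both groups, at 1852 and 478 CPM (1.95). Against these, H2bc4 stood at 23.5 and 98.3 CPM (-2.07) and H1f2 at 62.2 and 172 CPM (-1.46), and both kept this at like depth (-1.69 and -1.32) and in the lymph node (-3.06 and -1.18).

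Regulators of the cell cycle were at least 2-fold higher in 14 of 23 compared, against 10.3% of all genes (median 1.19, and 1.23 at like depth). Mybl2 had a ratio of 3.95 and Foxm1 3.71, the activators of the mitotic genes above, while the repressors E2f7 and E2f8 had 2.80 and 2.95. Cyclins E1 and E2 had 2.91 and 2.63. Among the D cyclins and their kinases, Ccnd3 was past 2-fold, at 68.3 and 32.7 CPM (1.06), and no other member was at least 2-fold higher. Ccnd1, cyclin D1, stood at 1018 and 673 CPM (0.60) and was found in 86.6% of non-cycling cells, Cdk4 at 383 and 200 CPM (0.94) and Cdk6 at 126 and 104 CPM (0.28). The MuvB subunit Lin37 stood at 9.85 and 9.27 CPM (0.09). Rb1, the retinoblastoma gene, stood at 7.27 and 7.37 CPM (-0.02). Ccnd2 was past 2-fold lower at low levels, 0.662 and 1.34 CPM, and in the depth window its ratio was 1.21.

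CDK inhibitors differed in direction from gene to gene (median -0.07 over 7, and 0.01 at like depth). Cdkn1a, which encodes p21, stood at 254 and 536 CPM (-1.08, -1.10 to -1.05) and at like depth at -0.53, within 2-fold. Cdkn3, a phosphatase of mitotic CDK that is itself a cell cycle gene, had 4.31, and the INK4 genes Cdkn2d and Cdkn2c had 1.95 and 1.84. Of 16 p53 targets compared, Cdkn1a included, 4 were at least 2-fold lower, against 3.91% of all genes, and 12 lay within 2-fold, 4 of them above 0 (up to 0.40 for Bax). The median was -0.62. At like depth it was -0.26, and 1 of 16 was 2-fold lower, against 1.07% of all genes. Trp53inp1 had -1.82 and kept -1.34 at like depth, Pmaip1 had -1.40 and Btg2 -1.38, and Mdm2 stood at 108 and 148 CPM (-0.46). Growth and nucleolar genes were at least 2-fold higher in 8 of 15, against 10.3% of all genes (median 1.03). At like depth 6 of 15 were, against 9.05%, with a median of 0.99. Nucleolin (Ncl) stood at 2300 and 1020 CPM (1.17) and Myc at 88.1 and 61.8 CPM (0.51).

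Some hypoxia and glycolysis genes were lower in cycling cells. Of 25 compared, 8 were at least 2-fold lower, against 3.91% of all genes, and 0 higher, with a median of -0.54. At like depth the median was -0.27, and 4 of 23 were lower, against 1.07% of all genes. Bnip3 stood at 27.9 and 149 CPM (-2.42, and -1.65 at like depth), Ndrg1 at 87.3 and 413 CPM (-2.24 and -1.41) and Ankrd37 at 13.3 and 49.6 CPM (-1.90 and -1.25). Vegfa, the angiogenic growth factor, stood at 41.7 and 147 CPM (-1.82), and at like depth at -0.73. Among glycolytic enzymes, Aldoa stood at 460.5 and 1013 CPM (-1.14), while Ldha stood at 767 CPM in both groups and Pgam1 at 357 and 309 CPM (0.21). Car9, a carbonic anhydrase of hypoxic cells, had -1.56, and at like depth -0.04.

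Differentiation genes of squamous and secretory epithelium were at least 2-fold lower in 7 of 19 compared, against 3.91% of all genes, and higher in 1, against 10.3%. Their median was -0.65 (-0.31 at like depth). Krt19 stood at 164 and 414 CPM (-1.33), the trefoil factor Tff1 at 59.8 and 183 CPM (-1.62) and Slurp1 at 25.2 and 56.7 CPM (-1.17). The squamous metallothionein Mt4 had a ratio of -1.73. Of 6 epithelial markers compared, 4 were at least 2-fold lower, Krt19 among them, against 3.91% of all genes, and at like depth 1 of 6 was, against 1.07%. Cldn4 stood at 24.8 and 87.3 CPM (-1.82), the epithelial transcription factor Elf3 at 122 and 311 CPM (-1.35) and Epcam at 55.9 and 115 CPM (-1.04), and at like depth these 3 were within 2-fold, at -0.91, -0.88 and -0.59. Krt7 and Spint2, given above, also lay within 2-fold. Sprr1a, of the cornified envelope, did not differ by level (378 and 387 CPM) but was found in 78.3% of members and 45.2% of non-cycling cells, and at 5000 UMIs in 52.9% and 36.8%. Cyp1a1, the aryl hydrocarbon receptor target, was the exception, at 93.6 and 38.2 CPM (1.29, and 1.67 at like depth), with -0.43 in the lymph node.

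**Figure D4:**
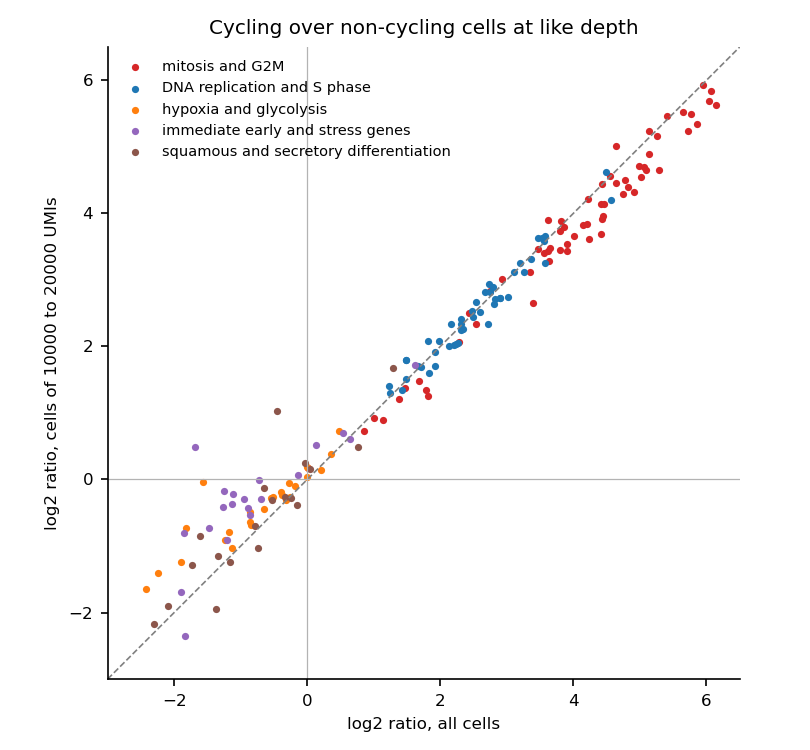
Log2 ratios of summed CPM, cycling over non-cycling cells, over all gate cells (horizontal axis) and over cells of 10000 to 20000 UMIs (vertical axis), 1 point per gene of 5 lists. Replication and mitosis genes lie along the dashed line of equal values, and many hypoxia and immediate early genes lie between it and 0.

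Immediate early and stress genes had the lowest median of the 17 lists, and the one that differed most at like depth. Of 20 compared, 10 were at least 2-fold lower, against 3.91% of all genes, with a median of -1.04. At like depth 1 of 19 was lower, against 1.07% of all genes, and the median was -0.29. Egr1 stood at 262 and 620 CPM (-1.24) but at -0.17 at like depth, Fos at -1.12 and -0.22, and Fosb at -1.86 and -0.80. Nupr1, a stress-induced chromatin protein, kept its difference, at 109 and 409 CPM (-1.90, and -1.70 at like depth). Chac1, a target of the amino acid response, was higher, at 10.6 and 3.47 CPM (1.61), and lower in the lymph node (-1.07). Tumour tissue had been digested warm for longer than lymph node tissue, while the cycling and non-cycling cells of a library shared the same digestion. The part of digestion in these levels was not tested.

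Few immune-facing genes passed 2-fold. Of 23 interferon response genes, 0 passed 2-fold in either direction, against 10.3% of all genes higher and 3.91% lower, and the median was 0.38, or 0.17 when centred on the median gene. At like depth 1 of 22 was at least 2-fold higher, against 9.05% of all genes, and the median was 0.42. The surface protein Bst2 stood at 726 and 455 CPM (0.67) and Gbp3 at 234 and 337 CPM (-0.53). Of 6 genes of RNA editing and double-stranded RNA sensing, 1 was at least 2-fold higher, a share near the 10.3% of all genes. It was the kinase PKR (Eif2ak2) at 66.9 and 30.4 CPM (1.14, 1.05 to 1.22). The list's median was 0.61, or 0.40 when centred and 0.61 at like depth, and the editing enzyme Adar stood at 23.8 and 16.2 CPM (0.55). The 12 genes of MHC class I presentation all stayed within 2-fold, with B2m at 1254 and 1492 CPM (-0.25) and a median of 0.03 (0.19 at like depth). Of 9 class 3 semaphorin and receptor genes, 0 passed 2-fold, against 10.3% of all genes higher and 3.91% lower. At like depth 1 of 8 was higher, Nrp1 (1.13), a share near the 9.05% of all genes. Sema3c, a secreted guidance factor, stood at 153 and 113 CPM (0.44). Of the receptors, Nrp2 stood at 88.5 and 84.5 CPM (0.07), Plxna1 at 24.3 and 23.97 CPM (0.02) and Nrp1 at 15.8 and 8.69 CPM (0.86). In cholesterol and fatty acid synthesis 3 of 22 were at least 2-fold higher, a share near the 10.3% of all genes (median 0.14), with Mvk at 1.29. At like depth 4 of 20 were, against 9.05%, with a median of 0.47, and in the lymph node 7 of 22, against 9.43%, with a median of 0.80. Of 15 antioxidant and metallothionein genes (median 0.08), Sqstm1 alone passed 2-fold (-1.02), a share near the 3.91% of all genes lower. On centring, the medians of MHC class I, semaphorin, cholesterol and antioxidant genes changed sign, to -0.19, -0.19, -0.07 and -0.14.

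Members varied among themselves along the cycle. They were ordered by the log2 ratio of UMIs of 8 G2M genes (Ccnb1, Cdc20, Plk1, Aurka, Ube2c, Hmmr, Kif20a, Ckap2) over 8 S phase genes (Mcm5, Pcna, Rrm2, Gins2, Cdc6, Uhrf1, Slbp, Dtl), with 1 added to each. Of 2475 members, 2438 had at least 10 UMIs of these 16 genes and 37 did not. The G2M genes outnumbered the S phase genes in 1283 cells (52.6%, 50.6 to 54.6), and the S phase genes outnumbered the G2M genes in 1126 (46.2%). The ratio ran from -5.75 to 6.43 with a median of 0.18 and quartiles of -1.42 and 1.49. It formed a single broad range with its peak near 1.5, and 2142 cells (87.9%) had at least 5 UMIs of both sets. The cells were divided into 5 bins of 487 or 488 cells, which are ranges and not cell types.

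**Figure D5:**
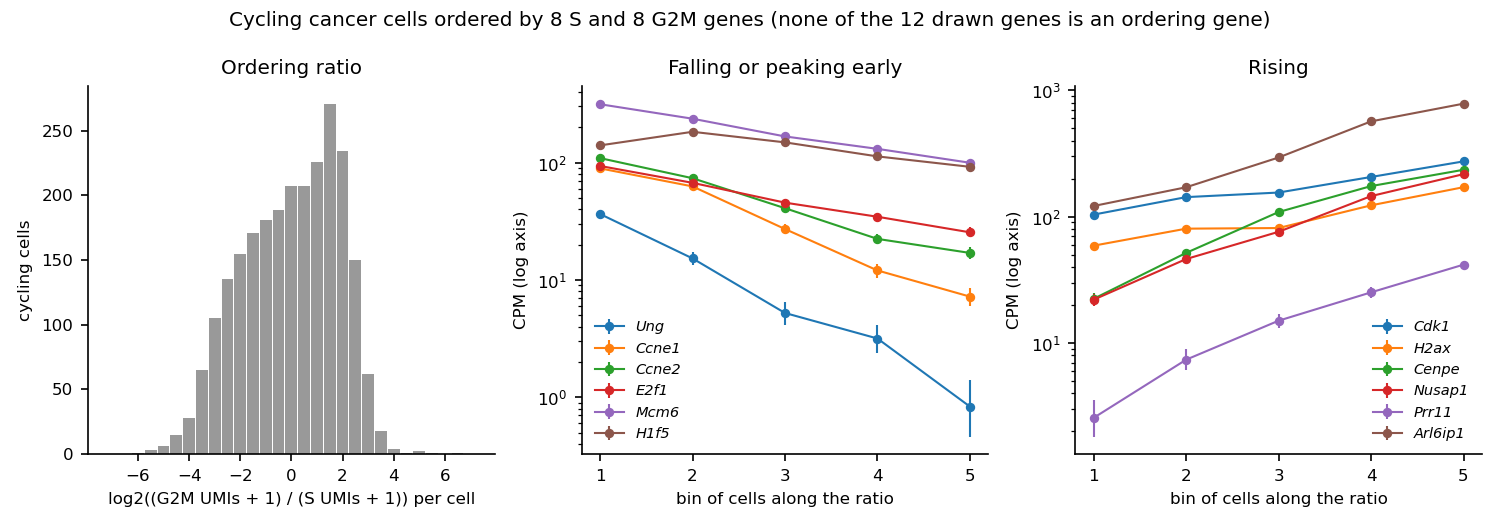
Left: cycling cells by their ordering ratio. Middle and right: levels (CPM, log axis) with exact 95% Poisson intervals of 12 genes outside the ordering sets in 5 bins of cells along that ratio, from S (bin 1) to G2M (bin 5). Ung and the E cyclins are highest in bin 1, H1f5 in bin 2, and Prr11, Nusap1 and Cenpe in bin 5.

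Genes with the highest ratios in the first bin included those that act at the start of S phase. Ung, which removes uracil from DNA, stood at 36.4, 15.2, 5.23, 3.17 and 0.834 CPM over the 5 bins. Cyclin E1 (Ccne1) stood at 89.1, 62.6 and 27.1 CPM in the first 3 bins and 7.21 CPM in the last, and cyclin E2 (Ccne2) from 109.0 to 73.5, 40.8 and 22.3 CPM in the first 4. The helicase-nuclease Dna2 went from 25.1 to 4.70 CPM and Zgrf1 from 17.2 to 3.99 CPM. Each of these 5 was lower in every next bin. E2f1 followed, from 93.4 to 25.4 CPM.

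Histones came next. H1f5 stood at 140, 183, 148, 113 and 91.9 CPM, so that it was highest in the second bin, and H2ac20 was highest there too. The summed histone list went from 5860 CPM in the first bin to 7233 in the second and stayed between 7076 and 7334 CPM after it. H2ax, the variant that marks DNA breaks when phosphorylated, went the other way, from 58.9 to 171 CPM.

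Genes with the highest ratios in the last bin included those of the spindle and cytokinesis. Fam83d stood at 8.81, 11.5, 22.2, 46.6 and 78.4 CPM and Prr11 at 2.56, 7.38, 15.0, 25.2 and 41.7 CPM. Aspm went from 17.4 to 160 CPM, Gas2l3 from 6.33 to 51.0 CPM and Nusap1 from 22.0 to 217 CPM. Genes of the mitosis list differed in their span. Ccna2 went from 48.6 to 117 CPM, while the kinetochore motor Cenpe went from 22.4 to 235 CPM and Arl6ip1, a membrane protein of the endoplasmic reticulum with a strong G2M pattern, from 121 to 783 CPM. Of the genes of the rule, Top2a stood at 328 CPM in the first bin and 765 CPM in the last, Mki67 at 157 and 372 CPM and Cenpf at 79.97 and 928 CPM. Members in the first bin had a median of 13 UMIs of the 3 genes and those in the last bin 65.

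Lists outside the cell cycle spanned narrower ranges along the order than those of replication and mitosis. Hypoxia and glycolysis genes summed to between 5964 and 6543 CPM in the 5 bins, interferon genes to between 2195 and 2424 CPM, MHC class I genes to between 2787 and 2926 CPM and antioxidant genes to between 13373 and 13712 CPM. Class 3 semaphorin and receptor genes were lower in each next bin, at 388, 340.3, 322, 311 and 298 CPM. Immediate early genes ranged from 4689.5 CPM in the first bin to 5562 CPM in the second, and differentiation genes from 1784 to 2013 CPM in the same bins. Replication genes outside the ordering set went from 4956 to 2453 CPM, and mitosis genes outside it from 3369 to 9129 CPM. Depth was not flat. The first 3 bins had medians of 25800 to 26199.5 UMIs and the last 2 of 32046 and 32528 UMIs. Marked doublets made up 10.7%, 13.1%, 11.9%, 6.98% and 5.75% of the bins.

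The spread between members was wide within each list. Per-cell mitosis levels in members ran from 929 to 21535 CPM with a median of 6582, and 10% of cells lay under 3049 CPM. In non-cycling cells the median was 964 CPM and 90% lay under 1729 CPM, so that these central ranges did not overlap. This gap was largely set by the rule, which split the groups on genes of division. The 595 cells left out between the groups had a summed mitosis level of 1942 CPM. For replication the members' median was 4188 CPM and 10% of them lay under 2204 CPM, while 90% of non-cycling cells lay under 1734 CPM. Hypoxia and glycolysis levels overlapped broadly. Their middle 80% ran from 4799 to 8109 CPM in members and from 4552 to 13684 CPM in non-cycling cells, and the interferon ranges were 1099 to 3350 and 572 to 3374 CPM.

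In the lymph node library the same gate held 1205 cells, of which 870 (72.2%, 69.6 to 74.7) were cycling and 239 had 0 or 1 UMI. These cells were deeper, with medians of 50517.5 and 32694 UMIs. At 5000 UMIs per cell, at least 2 UMIs of the 3 genes remained in 62.0% (59.2 to 64.8) of lymph node gate cells against 35.2% in the primary tumour. The libraries are 1 sample each and tissue, digestion and library cannot be told apart. Over 10268 genes compared there, 9.43% were at least 2-fold higher in cycling cells and 1.66% lower. Of the 10133 genes compared in both libraries, 696 were higher in both, which is 66.5% of the primary tumour's 1047 and 74.1% of the lymph node's 939. For lower genes, 70 were shared, 23.6% of 297 and 45.8% of 153. The replication median was 2.58 and the mitosis median 4.45, near those of the primary tumour, and ordered lymph node cells had more G2M than S phase UMIs in 57.0% (53.6 to 60.3). Of the deposited barcodes, 47 occurred in both libraries, 7 of them in members.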

How the data were processed

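Raw UMI counts per gene and cell, deposited by the authors as 1 sparse matrix per library, were used as they stand. Per the file headers the counts came from Cell Ranger 5.0.0, the submitters' processing notes name 2.1.1, and the genome build is GRCm38. The files hold 22620 genes, and how that list was made is not given in the sources used here. Cells over 6000 genes were still present and were kept, since the rule sets no upper limit.

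The primary tumour library held 173317475 UMIs and the lymph node library 122207852. Counts were summed over the cells of a group and divided by the group's total. The 10 genes of the gate were left out of comparisons, and "called" means past 2-fold. For shares at equal depth, cells were thinned to 5000 UMIs by the expected outcome of random draws. Doublets were scored with Scrublet (scanpy 1.11.5, expected rate 6%, 30 components, seed 1) over the 9989 filtered primary tumour cells, which marked 633 (6.34%), and were kept. The work ran in Python 3.11.15 with scipy 1.17.1, numpy 2.4.6, matplotlib 3.10.9 and pandas 2.3.3, and the log2 ratio, its interval and the thinning were tested on simulated data.

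The members, lists and rule for named genes were chosen with earlier results of these data known. Of the listed genes 425 matched by symbol, 18 by gene ID and 2 were not found. Named genes were the 12 highest and 12 lowest ratios (at least 500 UMIs, in at least 10% of the higher group's cells), the 5 most raised in the first and in the last ordering bin, and members of the lists. Alternatives changed the gene limit, doublets, depth, level, comparison group, threshold, mitochondrial limit, gate, scaling and count filter. Cell cycle regression, Harmony and inferCNV, which the study used, were not applied. With 1 library per tissue no test was run and no replicate could be left out. Results on some genes are not reported here.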

Additional observations from a re-analysis of the deposited data

Results flagged for a closer look

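The median log2 ratio of 6 lists, cycling over non-cycling cells, had opposite signs in the 2 libraries, and the difference was not tested, since each library was 1 sample. For the CDK inhibitors it was -0.0652 among tumour cells and 0.41 among lymph node cells. The interferon response list stood at 0.38 and -0.22 in the same order, and the list of RNA editing and double-stranded RNA sensing at 0.61 and -0.10. MHC class I antigen presentation stood at 0.0282 and -0.32, and class 3 semaphorins and receptors at 0.0203 and -0.38. The antioxidant and metallothionein list stood at 0.0759 and -0.54. Each of these 12 medians lay within 2-fold. Under some of the alternatives below, the tumour median changed sign for the CDK inhibitor, MHC class I, semaphorin and antioxidant lists. For the interferon and RNA editing lists it kept its sign in all of them.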

How the results depend on the processing

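No paired analysis was possible because each tissue had 1 library. All 24 named genes kept their direction and stayed past 2-fold in all 11 alternatives (264 of 264 values), and 176 of 187 list medians kept their sign. The named genes were picked as the extremes of these same counts. The filter of 500 UMIs was part of their naming rule and could not change them, and centring shifted every ratio alike. The 264 values are therefore a description and carry little weight. The share of cycling cells, 35.2%, was 28.0% without cells over 6000 genes, 34.0% without marked doublets, 23.5% among cells of 10000 to 20000 UMIs, 29.3% at a threshold of 10 UMIs, 32.5% at a mitochondrial limit of 10% and 33.9% under the stricter gate. The 1129 higher genes became 742 when centred on the median gene. The 430 lower genes became 259 without cells over 6000 genes, 102 among cells of 10000 to 20000 UMIs, 725 when centred and 273 with at least 500 UMIs per gene, where fewer genes were compared. Of 320 lower genes also compared in the depth window, 88 (27.5%) remained past 2-fold, against 731 of 882 higher genes (82.9%). Otherwise the cause was not tested.

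The replication median, 2.48, was 2.76 against cells with 0 UMIs, 1.97 against all gate cells under 5 and 2.27 when centred. The mitosis median, 4.22, was 3.86 in the depth window, 3.93 as a mean of single cells and 3.66 against all gate cells under 5. The interferon median, 0.38, was 0.49 as a mean of single cells, 0.46 against 0 UMIs, 0.28 against all under 5 and 0.17 when centred. The differentiation median, -0.65, was -0.43 without cells over 6000 genes, -0.71 without doublets, -0.31 in the depth window, -0.38 as a mean of single cells, -0.71 at a threshold of 10 UMIs, -0.72 under the stricter gate, -0.86 when centred and -0.53 with at least 500 UMIs per gene. The hypoxia median, -0.54, was -0.39 without cells over 6000 genes, -0.27 in the depth window and -0.76 when centred.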
